A study of Mus musculus with 2 samples.

Results

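The genes described here were those whose name begins with Slc and a family number, the solute carrier superfamily, in single cells from the lining of the mouse aorta. Of 344 such names in the count tables, 263 had at least 1 UMI (unique molecular identifier, 1 per captured transcript) and 145 held 100 or more UMIs over all barcodes of both libraries. The 145 genes were chosen on that total, out of 27998 genes in the tables, of which 10889 reached 100 UMIs. Slc16a1 and Slc25a42, with 100 UMIs each, and Slc18a2, with 101, lay just inside the threshold, and Slc7a4 (98), Slc39a8 (94) and Slc7a11 (86) lay just outside it. Of the 145 genes, 141 encode transporters. The other 4 carry an Slc name without being carriers: Slc9a3r1 and Slc9a3r2 are PDZ scaffold proteins, and Slc4a1ap and Slc7a6os are named after a neighbour or a binding partner.

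The study compared aortic endothelium of young and old C57BL6/J mice. The young library came from mouse aorta at an age of 8 weeks and the old library at 18 months. After the adventitia had been cut away, the inner surface was loosened with trypsin and lifted with a small blade, and cells were run through a droplet 3′ kit. There was 1 library per age, so no test between ages could be made, and every interval below covers counting error only and not the spread between mice.

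Solute carriers move amino acids, sugars, ions, metals, vitamins and nucleosides across the plasma membrane and the membranes of organelles, mostly by facilitated diffusion or by coupling to a sodium, proton or chloride gradient. The Slc25 family sits in the mitochondrial inner membrane and passes nucleotides, phosphate and metabolites. Endothelium takes up glucose largely through Slc2a1 (GLUT1), and some carriers need a partner glycoprotein, such as Slc3a2 for the Slc7 light chains.

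The young library held 1366 barcodes and the old library 3408, with medians of 7558.5 and 4737 UMIs, and 11 barcode sequences occurred in both. Clusters were made without any Slc gene and named from marker genes. EC-like (endothelial) cells numbered 1081 in young and 2383 in old, and fibroblast-like cells 239 and 572. Macrophage-like cells numbered 13 and 155, T or NK-like cells 10 and 123, and erythroid-like cells 1 and 37. Levels below are UMIs per 1000000 UMIs of a class, written CPM. The EC markers summed to 11968 CPM in young EC-like cells and 11321 CPM in old ones, with all 11 detected. Because 1 UMI stands for 1 tagged 3′ end, they need no scaling by transcript length. Depth per class ranged from 10055253 UMIs (young) and 14091628 UMIs (old) in EC-like cells to 165177 UMIs in the old erythroid-like cells and 13024 UMIs in the single young one.

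The 300 bases around the start of 3 genes are shown as examples of a subtype, an age and a class difference described below: Slc26a4 was found mostly in 1 endothelial subtype, Slc2a1 was lower in old endothelium, and Slc16a1 was fibroblast-like rather than EC-like. Each runs from 250 bases before the start to 50 after it, on the gene's strand, from RefSeq (GRCm38.p6). Capitals mark TATAAA, the core of a TATA box, and ACGTG, the core to which hypoxia-inducible factors bind, searched on both strands. Where ACGTG on one strand overlaps its match on the other, the capitals run over both.
Slc26a4, chr12:31559935-31560234, minus strand: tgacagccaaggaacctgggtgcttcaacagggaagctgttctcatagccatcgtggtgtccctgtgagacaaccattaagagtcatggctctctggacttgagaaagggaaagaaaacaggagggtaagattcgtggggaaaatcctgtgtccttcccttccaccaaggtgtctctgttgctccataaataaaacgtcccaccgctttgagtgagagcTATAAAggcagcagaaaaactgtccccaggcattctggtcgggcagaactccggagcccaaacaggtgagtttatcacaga
Slc2a1, chr4:119108495-119108794, plus strand: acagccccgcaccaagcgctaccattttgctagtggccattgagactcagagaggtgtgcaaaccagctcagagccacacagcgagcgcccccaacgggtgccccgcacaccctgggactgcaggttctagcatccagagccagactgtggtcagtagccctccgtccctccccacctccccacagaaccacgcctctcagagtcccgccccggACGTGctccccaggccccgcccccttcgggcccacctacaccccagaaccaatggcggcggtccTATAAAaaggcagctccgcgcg
Slc16a1, chr3:104638414-104638713, plus strand: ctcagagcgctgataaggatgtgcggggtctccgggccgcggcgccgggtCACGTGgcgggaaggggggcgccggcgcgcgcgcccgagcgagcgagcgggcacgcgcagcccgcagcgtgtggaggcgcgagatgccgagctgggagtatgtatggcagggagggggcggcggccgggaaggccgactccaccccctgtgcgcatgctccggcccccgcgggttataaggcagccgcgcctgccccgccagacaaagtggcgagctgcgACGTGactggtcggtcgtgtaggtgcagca
In Slc26a4, TATAAA began 31 bases before the start (-31). The stretches checked after this start matched no GENCODE vM21 transcript of Slc26a4, whereas a match was found for Slc2a1 and Slc16a1. In Slc2a1, ACGTG began at -36 and TATAAA at 28 bases into the transcript. In Slc16a1, ACGTG matched at -200 on the minus strand, at -199 on the plus strand and at 20. Of the 145 genes, 112 had such a window. ACGTG occurred in 35.7% of these 112 windows, against 21.8% of all genes with a window, and TATAAA in 8.04% against 15.7%. These matches describe the letters only.

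The summed level of the 145 genes was 5183 CPM in young EC-like cells and 5507 CPM in old ones, 4804 and 4378 CPM in fibroblast-like cells, 4165 CPM in old macrophage-like cells and 1320 CPM in old erythroid-like cells. Erythroid markers, haemoglobin genes among them, summed to 773830 CPM in the old erythroid-like cells, which lowered the share left for the 145 genes. At an equal depth of 3100 UMIs per cell, the median EC-like cell showed 12 of the 145 genes in young and 13 in old, the median fibroblast-like cell 12 and 11, and the median old erythroid-like cell 3. That depth left out 101 young and 559 old EC-like cells. Without thinning, the medians for EC-like cells were 23 in young and 18 in old. A few genes held much of the total: 6 of them made up 39.6% of the summed level in young and 44.7% in old EC-like cells, while 45 and 42 genes lay below 10 CPM.

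The most abundant of the 145 in EC-like cells was Slc9a3r2 (NHERF2), a scaffold that tethers membrane proteins to the cytoskeleton, at 469 CPM (young) and 590 CPM (old). Slc25a4, the ADP/ATP carrier of the mitochondrial inner membrane, stood at 427 and 446 CPM. Slc25a3, the mitochondrial phosphate carrier, stood at 414 and 396 CPM. Slc3a2, the heavy chain that brings several amino acid exchangers to the cell surface, stood at 261 and 416 CPM. Slc43a3, a purine nucleobase transporter in a family of amino acid transporters, stood at 242 and 328 CPM. Slc50a1, a member of the SWEET sugar transporter family, stood at 239 and 287 CPM. In fibroblast-like cells the ADP/ATP carrier Slc25a4 led instead, at 554 CPM (young) and 584 CPM (old), and in old macrophage-like cells its paralogue Slc25a5 led at 465 CPM. Slc25a5 shares 24.5% of its 3′ end sequence with other transcripts, so its counts may be split with them.

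Endothelial and fibroblast-like cells carried different solute carriers in both libraries. With 20 UMIs or more, 143 of the 145 genes could be compared (Slc18a2 and Slc9a9 could not). At least 2-fold higher in EC-like cells of both libraries were 20 genes, or 14% of those compared, beside 14.4% of all 10698 genes compared. At least 2-fold higher in fibroblast-like cells of both libraries were 15, or 10.5%, beside 8.48% of all genes. These shares were close to those of all genes, which met the same minimum of 100 UMIs. A gene can reach that minimum mostly through the class where it is high, as Slc16a1 did. The median log2 ratio of EC-like over fibroblast-like for the 143 genes was 0.06 in young and 0.29 in old, beside 0.16 and 0.34 for all genes. Scaling to the median gene in place of the class total lowered every log2 ratio by 0.128 in young and by 0.332 in old, and then 15 genes were higher in EC-like and 17 in fibroblast-like cells.

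**Figure D1:**
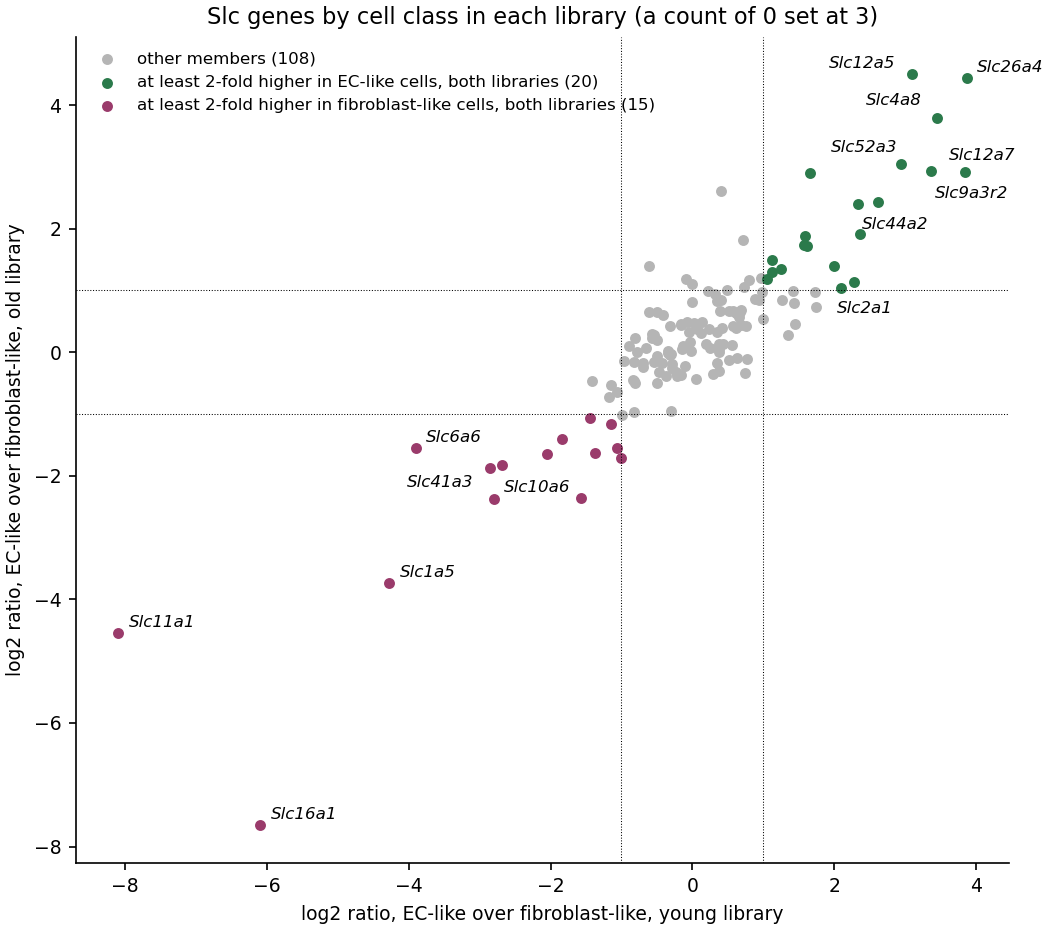
Each point is 1 of the 143 genes compared, with its log2 ratio of EC-like over fibroblast-like CPM in the young library (x axis) and in the old library (y axis). Dotted lines mark 2-fold. The 20 green genes lie beyond 2-fold towards EC-like cells in both libraries and the 15 purple genes beyond 2-fold towards fibroblast-like cells, with Slc26a4 and Slc16a1 near the opposite ends.

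The genes higher in EC-like cells included 4 of 21 carriers of inorganic ions compared. Slc26a4 (pendrin), an exchanger of chloride for iodide and bicarbonate, was counted at 21.3 CPM in young EC-like cells and 28.7 CPM in old ones against 1.46 and 1.33 CPM in fibroblast-like cells. The ratio was 14.6-fold in young (log2 3.87, 95% interval 2.30 to 6.16) and 21.6-fold in old (4.43, 3.06 to 6.32). Slc12a7 (KCC4), a potassium-chloride cotransporter, was 56.1 and 62.5 CPM in EC-like against 3.89 and 8.32 CPM in fibroblast-like cells, a log2 ratio of 3.85 (2.86 to 5.07) in young and 2.91 (2.34 to 3.55) in old. For both genes the EC-like levels lay above the fibroblast-like levels in both libraries. Slc4a8, a sodium-driven chloride-bicarbonate exchanger, had 160 and 195 UMIs in EC-like cells and 0 and 3 in fibroblast-like cells. With the 0 set at 3 counts, the ratio in young was 10.9-fold, a point value and not a lower bound. In old the log2 ratio was 3.79 (2.22 to 6.08). Slc12a5 (KCC2), a potassium-chloride cotransporter best known from neurons, was low in EC-like cells, at 4.18 and 7.52 CPM, and had 1 UMI in the fibroblast-like cells of each library (log2 3.10, 0.55 to 8.44, and 4.50, 1.99 to 9.82).

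Carriers of vitamins and choline were also among the endothelial genes. Slc44a2, a choline transporter-like protein, stood at 186 and 153 CPM in EC-like and 30.1 and 28.3 CPM in fibroblast-like cells, a ratio of 6.16-fold and 5.39-fold. Slc52a3, a riboflavin transporter, stood at 26.3 and 30.2 CPM against 3.40 and 3.66 CPM. Slc16a13, of the monocarboxylate transporter family, stood at 12.2 and 12.3 CPM against 2.43 and 2.33 CPM. Slc3a2 stood at 261 and 416 CPM against 85.1 and 127 CPM, with log2 ratios of 1.62 (1.39 to 1.85) and 1.71 (1.56 to 1.87). The scaffold Slc9a3r2 was 10.3-fold and 7.68-fold higher in EC-like cells, so the most abundant of the 145 genes in endothelium was also among those that set it apart. For each of these genes the EC-like level was the higher one in both libraries.

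The fibroblast-like genes included a lactate and a glutamine carrier. Slc1a5 (ASCT2), a sodium-dependent exchanger of glutamine and other neutral amino acids, stood at 12.2 and 11.7 CPM in EC-like cells and at 237 and 156 CPM in fibroblast-like cells. The ratio towards fibroblast-like cells was 19.4-fold in young (log2 of EC-like over fibroblast-like -4.27, -4.57 to -3.99) and 13.3-fold in old (-3.73, -4.00 to -3.47). Slc16a1 (MCT1), a proton-coupled carrier of lactate and pyruvate, had 3 UMIs in young and 1 in old EC-like cells, or 0.298 CPM (0.0615 to 0.872) and 0.071 CPM (0.0018 to 0.395). In fibroblast-like cells it had 42 and 43 UMIs, or 20.4 CPM (14.7 to 27.6) and 14.3 CPM (10.4 to 19.3). The log2 ratios were -6.10 (-8.43 to -4.45) and -7.66 (-12.99 to -5.10). At 3100 UMIs per cell it was seen in 2 of 980 young and 1 of 1824 old EC-like cells, and in 6.31% and 4.69% of fibroblast-like cells. A level this low in EC-like cells cannot be told from free RNA at this depth. Slc16a1 also lies just inside the threshold that chose the genes, and most of its 100 UMIs were in fibroblast-like cells.

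Other fibroblast-like genes carry sulfated steroids, taurine and metals. Slc10a6 (SOAT), a carrier of sulfated steroids, stood at 2.59 and 2.77 CPM in EC-like and 18.0 and 14.3 CPM in fibroblast-like cells. Slc16a9, another monocarboxylate transporter family member, stood at 2.19 and 2.34 CPM against 14.1 and 8.32 CPM. Slc41a3, of a magnesium transporter family, stood at 5.57 and 4.90 CPM against 40.3 and 18.0 CPM. Slc39a6, a zinc importer, stood at 8.45 and 9.08 CPM against 35 and 28.3 CPM. Slc6a6, the taurine transporter, was 14.9-fold higher in fibroblast-like cells in young and 2.94-fold in old. Its EC-like levels are described by age below. Summed levels of EC markers in fibroblast-like cells were 1388 and 1396 CPM, and those of fibroblast markers in EC-like cells 728 and 702 CPM. Each class thus held some RNA of the other's marker genes. Whether that RNA came from the other class, and what such RNA adds to low values, was not tested.

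**Figure D2:**
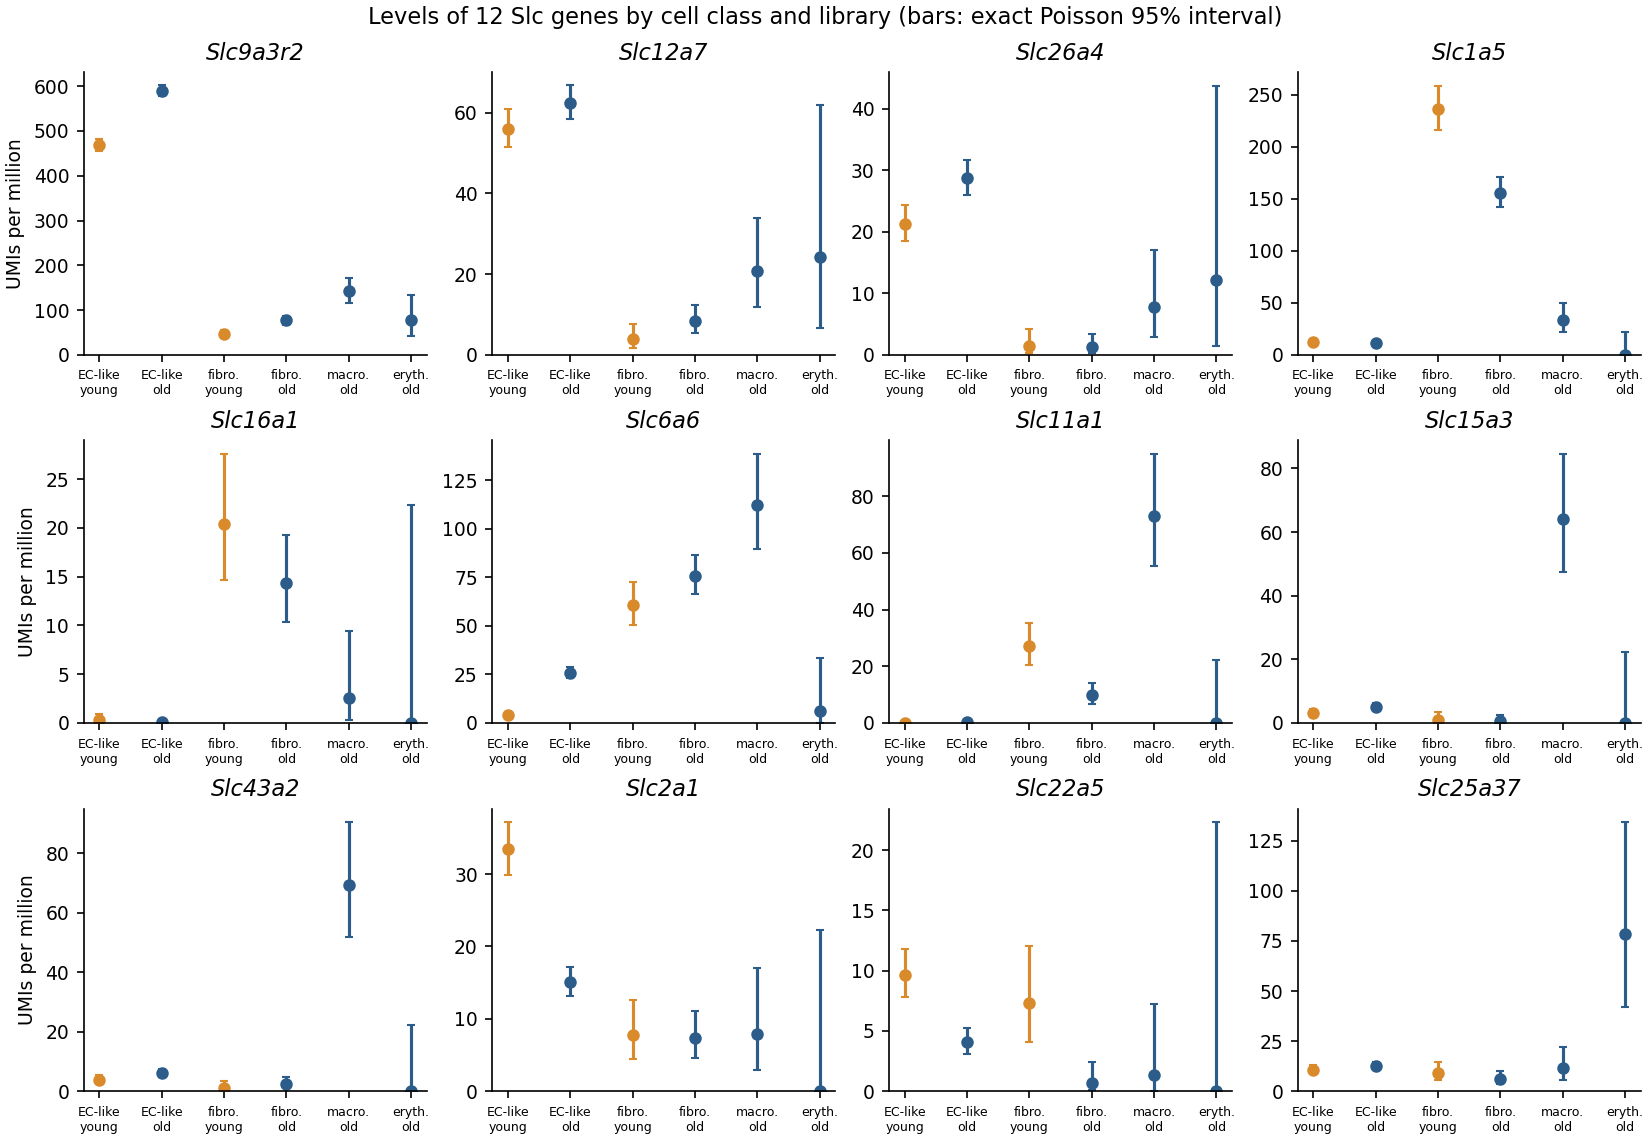
Levels of 12 Slc genes in CPM (y axis, from 0, a scale per panel) in EC-like and fibroblast-like cells of the young and old libraries and in macrophage-like and erythroid-like cells of the old library (x axis). Points are the level of a class in 1 library and bars the exact Poisson 95% interval. Slc1a5 and Slc16a1 sit high in fibroblast-like cells, Slc12a7 and Slc26a4 in EC-like cells, and Slc11a1, Slc15a3 and Slc43a2 in macrophage-like cells.

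Each EC-like cluster was assigned to 1 of 2 subtypes by its markers, and a few carriers differed between the subtypes in both libraries. The Coch subtype (clusters with the markers Coch, Sost and Adra2a) held 463 young and 454 old cells, and the Isl1 subtype (higher in Bcan, Isl1 and Frzb) held 618 and 1929. The Coch subtype was thus 42.8% of young and 19.1% of old EC-like cells. Different clusters held a subtype in the 2 libraries: cluster 1 held 444 of the young Coch cells and cluster 2 held 444 of the old ones, while cluster 0 held 574 of the young Isl1 cells and clusters 6 and 8 held 659 and 1250 of the old ones. None of 141 genes compared was at least 2-fold higher in the Coch subtype of both libraries, beside 0.884% of all genes. At least 2-fold higher in the Isl1 subtype of both libraries were 4 genes, or 2.84%, beside 1.40% of all genes. These were Slc26a4, Slc6a6, Slc12a5 and Slc1a5, and in 5 of 9 other settings the count was 0 to 2. The summed level of all 145 genes was 4898 and 5011 CPM in the Coch subtype and 5473 and 5634 CPM in the Isl1 subtype.

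Pendrin (Slc26a4) differed most. It stood at 3.94 CPM (2.41 to 6.09) in young Coch cells and 4.16 CPM (2.15 to 7.26) in old ones, and at 38.9 CPM (33.7 to 44.8) and 35.1 CPM (31.7 to 38.7) in Isl1 cells. The Isl1 subtype was higher by 9.88-fold in young and 8.43-fold in old (log2 of Coch over Isl1 -3.30, -4.05 to -2.64, and -3.08, -4.04 to -2.26). At 3100 UMIs per cell, a UMI was seen in 7.34% of young and 8.26% of old Isl1 cells, in 1.38% and 1.08% of Coch cells, and in 0 of 222 young and 3 of 469 old fibroblast-like cells. By the limit of 3 counts, 0 of 222 cells allows a share of up to 1.35% of cells with a UMI at this depth. Unthinned, the shares were 13.6% and 12.6% of Isl1 cells, 2.81% and 2.20% of Coch cells, and 0.837% and 0.699% of fibroblast-like cells. Median depth was 8896 and 5569 UMIs in Coch cells and 6451.5 and 4919 UMIs in Isl1 cells. When each cell was classed by its own markers in place of its cluster, the log2 ratio was -1.73 in young and -1.51 in old. Keeping doublet calls left 33 young Coch cells without a UMI of Slc26a4. With that 0 set at 3 the young value was -0.68, with an upper bound of -0.37.

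The other Isl1-higher genes handle amino acids or chloride. Slc6a6 stood at 1.38 and 11.4 CPM in Coch and 6.82 and 29.5 CPM in Isl1 cells (log2 of Coch over Isl1 -2.31, -3.72 to -1.11, and -1.37, -1.93 to -0.85). With each cell classed by its own markers its log2 ratio was -0.70 (-1.56 to 0.17) in young and -0.64 (-1.02 to -0.27) in old, and with a stricter cell filter -0.74 in old, so the 2-fold call did not hold there. The glutamine exchanger Slc1a5 stood at 7.88 and 6.24 CPM in Coch and 16.7 and 13.1 CPM in Isl1 cells. Its summed EC-like level is low, and fibroblast markers were also lower in Coch cells (551 and 490 CPM) than in Isl1 cells (909 and 757 CPM). Their part in the Slc1a5 difference was not tested. Slc12a5 stood at 2.37 and 3.47 CPM in Coch and 6.02 and 8.57 CPM in Isl1 cells, on 12 and 10 UMIs in Coch cells. Below the 2-fold line, Slc43a3 stood at 173 and 219 CPM in Coch and 312 and 356 CPM in Isl1 cells, and Slc3a2 at 229 and 318 CPM against 293 and 441 CPM.

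Towards the Coch subtype the differences were smaller. Slc26a2, a sulfate transporter, stood at 40.4 and 35.3 CPM in Coch and 17.9 and 18.4 CPM in Isl1 cells (log2 1.18, 0.81 to 1.55, and 0.94, 0.59 to 1.29). The glucose transporter Slc2a1 stood at 43.8 and 24.9 CPM in Coch and 22.9 and 12.5 CPM in Isl1 cells (0.94, 0.60 to 1.27, and 1.00, 0.57 to 1.42). Slc4a8 stood at 20.1 and 22.2 CPM against 11.6 and 11.7 CPM. For all 3 genes the Coch level was the higher one in both libraries. With each cell thinned to 3100 UMIs, the log2 ratio of Slc2a1 was 0.55 (-0.08 to 1.18) in young and 0.53 (-0.20 to 1.21) in old. Adding back the 12 barcodes called as doublets regrouped the cells and left the young Coch subtype with 33 cells, where the young log2 ratio of Slc4a8 was -0.53 (-5.86 to 2.01) and that of Slc2a1 0.09 (-2.21 to 1.68).

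**Figure D3:**
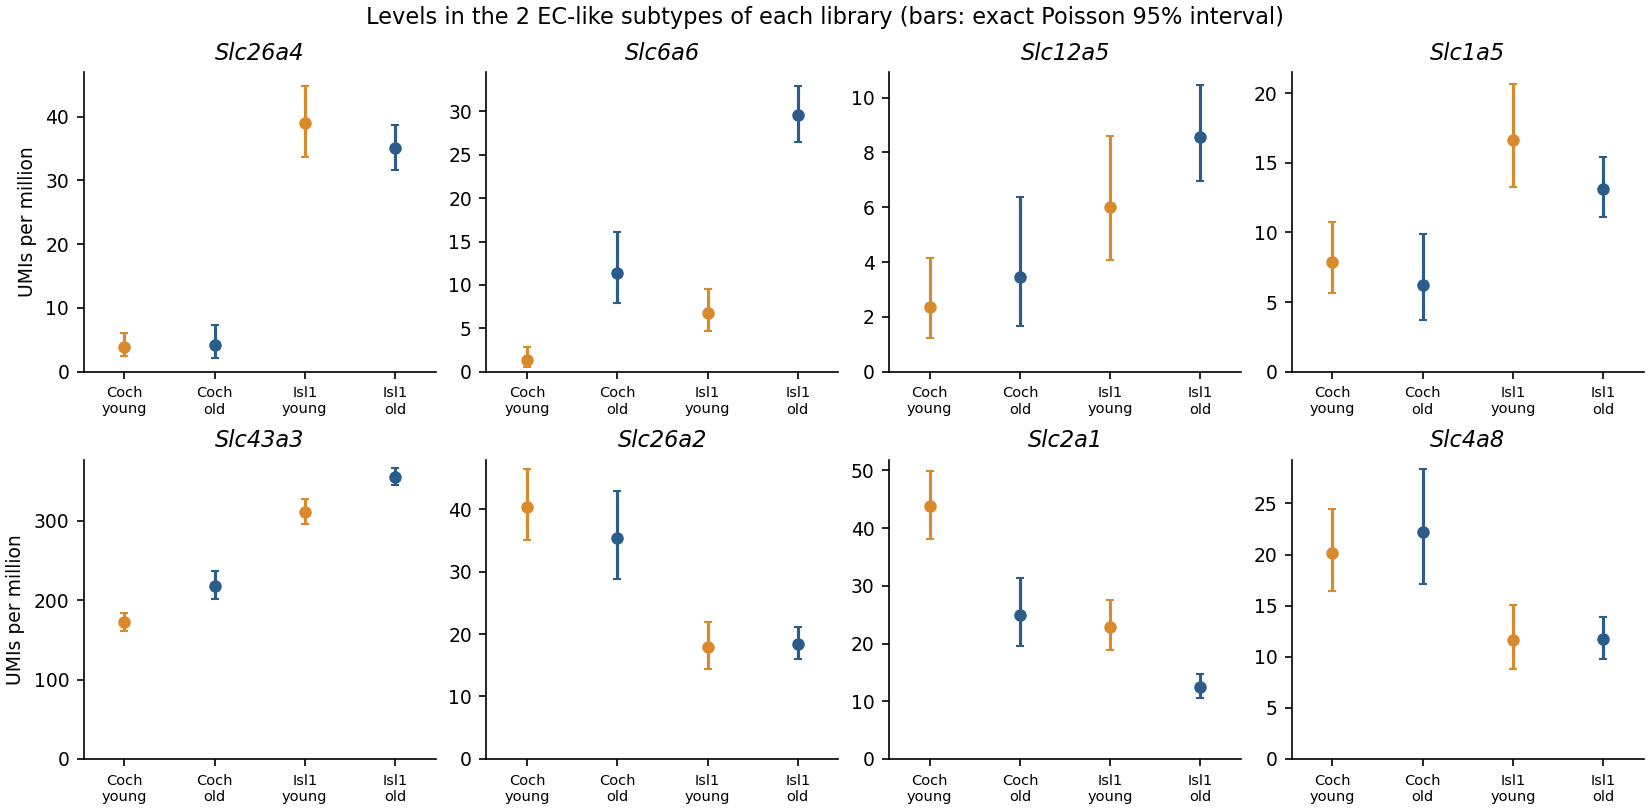
Levels of 8 Slc genes in CPM (y axis, from 0, a scale per panel) in the Coch and Isl1 subtypes of EC-like cells in the young and old libraries (x axis), with exact Poisson 95% intervals. Slc26a4 is at 3.94 and 4.16 in the Coch subtype and at 38.9 and 35.1 in the Isl1 subtype, whereas Slc26a2 and Slc2a1 lie higher in the Coch subtype.

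Between the old and the young library, few solute carriers of EC-like cells differed by 2-fold. Of 143 genes with 20 UMIs or more (not Slc11a1 and Slc16a1), 2 were at least 2-fold higher in old (Slc6a6 and Slc18a2), or 1.40%, beside 2.55% of all 10697 genes. Another 2 were at least 2-fold lower (Slc2a1 and Slc22a5), or 1.40%, beside 2.22% of all genes. The median log2 ratio was 0.04 for the 143 genes and 0.07 for all genes. Of the 143 genes, 79 were above 0 and 64 (44.8%) below, beside 40.7% of all genes below 0. With doublet calls kept, with marker-free cells and with thinning, 4 genes in place of 2 were higher in old.

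The taurine transporter Slc6a6, which brings in the osmolyte and antioxidant taurine with sodium and chloride, had the highest ratio of the 143 genes. Its level was 4.08 CPM (2.93 to 5.53, 41 UMIs) in young EC-like cells and 25.8 CPM (23.2 to 28.6, 364 UMIs) in old ones, a 6.34-fold difference (log2 2.66, 2.20 to 3.17). The old level was higher in both subtypes, with log2 ratios of 3.05 (1.85 to 4.47) in Coch and 2.11 (1.60 to 2.67) in Isl1 cells. At 3100 UMIs per cell it was seen in 1.33% of young and 7.29% of old EC-like cells. Unthinned, the shares were 3.61% and 13%, and the median depths 7396 and 5003 UMIs. Slc6a6 was higher still in other classes, at 60.8 and 75.9 CPM in fibroblast-like and 112 CPM in macrophage-like cells of either library. Macrophage markers summed to 16.3 CPM in young EC-like cells and 126 CPM in old ones, with 7 and 10 of 10 detected, against 19956 CPM in old macrophage-like cells, and erythroid markers to 25.4 and 604 CPM. In the 803 young and 1160 old EC-like cells without a UMI of 7 macrophage or fibroblast markers, the log2 ratio was 2.82 (2.22 to 3.46). When each cell was classed by its own markers it was 1.32 (1.01 to 1.63), and with doublet calls kept 1.96 (1.45 to 2.51).

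Slc18a2 (VMAT2), which loads monoamines into vesicles, was rare, with 14 UMIs in young and 80 in old EC-like cells, or 1.39 and 5.68 CPM (log2 2.03, 1.20 to 2.96). In the Isl1 subtype the levels were 1.20 and 6.78 CPM (2.49, 1.31 to 3.98), while in Coch cells they were 1.58 and 1.39 CPM on 8 and 4 UMIs (-0.19, -2.37 to 1.71). Whether the subtypes differ in this was not tested. It had 1 UMI in the macrophage-like cells of each library, and 1 and 2 UMIs in fibroblast-like cells. Slc18a2 also lies just inside the threshold that chose the genes, with 85 of its 101 UMIs in the old library.

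The glucose transporter Slc2a1 (GLUT1) was lower in the old library, at 33.4 CPM (29.9 to 37.2, 336 UMIs) in young EC-like cells and 15.04 CPM (13.1 to 17.2, 212 UMIs) in old ones. That is 2.22-fold (log2 -1.15, -1.41 to -0.90). Within the Coch subtype it went from 43.8 to 24.9 CPM (-0.81, -1.21 to -0.42) and within the Isl1 subtype from 22.9 to 12.5 CPM (-0.87, -1.24 to -0.50). The young level was thus higher in both subtypes, though by less than 2-fold, and the old library held a smaller share of Coch cells, in which Slc2a1 was higher at both ages. Fibroblast-like cells showed 7.78 and 7.32 CPM (-0.09, -1.08 to 0.94). At equal depth Slc2a1 was seen in 8.67% of young and 4.06% of old EC-like cells, against 23.6% and 8.44% unthinned, and the log2 ratio of levels was then -0.86. With doublet calls kept it was -0.60 (-0.94 to -0.26).

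Slc22a5 (OCTN2), the sodium-dependent carnitine carrier, stood at 9.65 CPM in young EC-like cells and 4.04 CPM in old ones (log2 -1.25, -1.75 to -0.77), and was lower in old in both subtypes (-1.44 in Coch, -1.34 in Isl1). Because 34.5% of its 3′ end sequence occurs in other transcripts, Slc22a21 and Slc22a4 among them, its counts are uncertain. Slc25a33, a mitochondrial pyrimidine nucleotide carrier, stood just inside 2-fold, at 26.3 and 13.3 CPM (-0.98, -1.25 to -0.70).

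Smaller differences with narrow intervals were seen in the abundant genes. Slc3a2 was 1.60-fold higher in old (log2 0.67, 0.61 to 0.74), with 0.47 (0.35 to 0.60) in Coch and 0.59 (0.50 to 0.67) in Isl1 cells. Slc43a3 was higher by 0.44 (0.37 to 0.51), by 0.34 (0.19 to 0.49) within Coch and 0.19 (0.11 to 0.28) within Isl1 cells, and by 0.09 (0.005 to 0.171) with doublet calls kept. Slc9a3r2 was higher by 0.33 (0.28 to 0.38). Slc39a1, a zinc importer, stood at 78.7 CPM (young) and 52.8 CPM (old) (-0.58, -0.72 to -0.43). Slc25a39, which carries glutathione into mitochondria, stood at 43.4 and 31.7 CPM (-0.45, -0.64 to -0.26). Other genes at the upper end were Slc25a10, the dicarboxylate carrier (0.96), Slc12a2 (NKCC1), a sodium-potassium-chloride cotransporter (0.90), Slc12a5 (0.85), Slc38a6 (0.78) and Slc39a14, a carrier of zinc, iron and manganese (0.53). At the lower end were Slc35a5, of the nucleotide sugar transporter family (-0.80), Slc24a5, a potassium-dependent sodium-calcium exchanger (-0.78), Slc7a7, a light chain for cationic amino acids (-0.75), and Slc7a6os (-0.56). With each cell thinned to 3100 UMIs, Slc39a14 was at 0.06 (-0.43 to 0.57), Slc7a6os at -0.19 (-0.68 to 0.31) and Slc24a5 at -1.90 (-2.86 to -0.99). Slc38a6 shares 17.6% of its 3′ end sequence with other transcripts.

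Within the subtypes the counts past 2-fold were again small. In Coch cells 2 of 139 genes were higher in old (Slc6a6 and Slc25a25), beside 2.22% of all genes, and 2 were lower (Slc22a5 and Slc20a2), beside 2.75%. Over the 9 other settings the counts in Coch cells ran from 0 to 6 higher and from 1 to 18 lower. In Isl1 cells 4 of 143 genes were higher in old (Slc6a6, Slc18a2, Slc25a10 and Slc12a2), beside 2.76% of all genes, and 3 were lower (Slc22a5, Slc25a33 and Slc1a4), beside 2.22%. Slc6a6 passed the line upwards and Slc22a5 downwards in both subtypes. These comparisons use the cells of the same 2 libraries and do not repeat each other. They set mostly different clusters of a subtype side by side, clusters 1 and 2 for Coch cells and clusters 0, 6 and 8 for Isl1 cells, so a ratio within a subtype and a difference between clusters cannot be told apart.

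**Figure D4:**
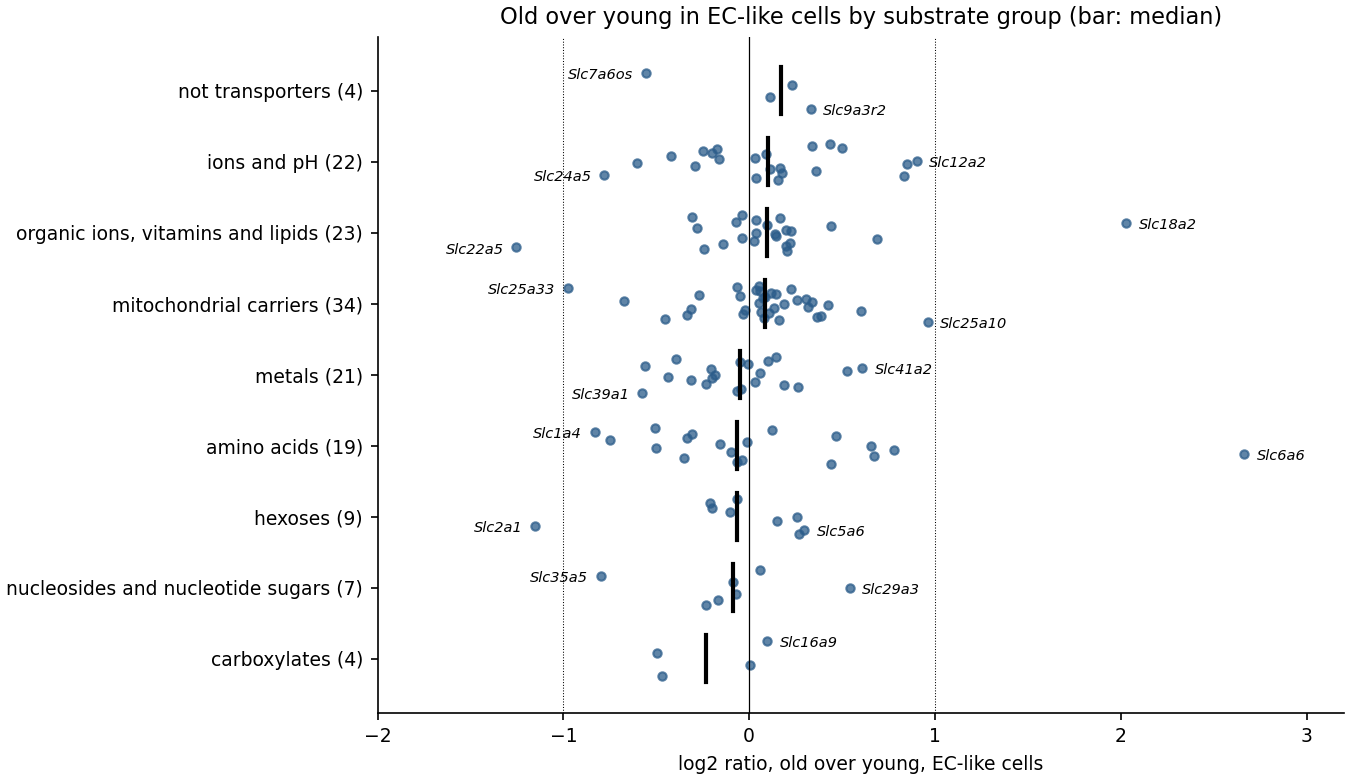
Log2 ratio of old over young CPM in EC-like cells (x axis) for each of 143 Slc genes, arranged by substrate group (y axis, number of genes in brackets). Black bars are group medians, dotted lines mark 2-fold, and the lowest and highest genes of the groups are named, except the lowest monocarboxylate family member. Only Slc6a6, Slc18a2, Slc2a1 and Slc22a5 lie beyond the dotted lines.

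Grouped by the substrate of their family, the genes showed no shift of a whole group past 2-fold in EC-like cells. Among all genes 40.7% were below 0 and the median was 0.07, beside 44.8% below 0 among the 143 genes. Of 34 mitochondrial carriers, 24 were above 0 and 10 below, with a median of 0.08, between Slc25a33 (-0.98) and Slc25a10 (0.96). Their summed level was 1548 CPM in young EC-like cells and 1585 CPM in old ones. Of 22 carriers of inorganic ions and acid-base equivalents, 14 were above 0 (median 0.10). Of 21 metal carriers, 13 were below 0 (median -0.05), from Slc39a1 (-0.58) to the magnesium transporter family member Slc41a2 (0.61), and the summed level was 528 and 486 CPM. Of 19 amino acid carriers, 12 were below 0 (median -0.06). The group was drawn by family, and its 2 most abundant members, the heavy chain Slc3a2 and the nucleobase transporter Slc43a3, were higher in old, while the other 17 summed to 321 CPM (young) and 315 CPM (old). Slc1a4, a neutral amino acid exchanger, was the lowest of them (-0.83).

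Of 23 carriers of organic ions, vitamins and lipids, 15 were above 0 (median 0.10), from Slc22a5 to Slc18a2. Of 7 nucleoside and nucleotide sugar carriers, 5 were below 0 (median -0.09), from Slc35a5 to the lysosomal nucleoside carrier Slc29a3 (0.54, and 0.11 in marker-free cells or 0.13 with thinning). Of 9 genes in the families of hexose carriers, 5 were below 0 (median -0.07), from Slc2a1 to Slc5a6 (0.29). That group was drawn by family and includes carriers of other substrates, such as the multivitamin carrier Slc5a6. Of 4 monocarboxylate transporter family members, 2 were above 0 (median -0.23), with Slc16a9 the highest (0.10).

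More of the genes passed 2-fold in fibroblast-like cells, which held fewer UMIs (2057247 in young and 3005120 in old). Of 130 genes compared, 6 were at least 2-fold higher in old, or 4.62%, beside 3.19% of all genes. At least 2-fold lower were 11, or 8.46%, beside 4.30% of all genes. The median log2 ratio was -0.13, beside -0.09 for all genes. Scaling to the median gene raised every ratio by 0.155, and leaving mitochondrial, ribosomal protein and haemoglobin genes out of the class total raised it by 0.150. With either, 7 genes were higher and 4 lower, so most of the 11 lay near the line. Erythroid markers summed to 25.8 CPM in young fibroblast-like cells and 1348 CPM in old ones. Fibroblast markers summed to 35880.5 CPM in the young and 21460.4 CPM in the old cells of this class. The part of either difference in these ratios was not tested.

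Metal carriers made up 3 of the 11 lower genes, and 16 of 22 metal carriers were below 0 (median -0.41), beside 77 of all 130 Slc genes and 58.4% of all genes. The upward shifts of 0.155 and 0.150 under the other scalings apply to these values too. Slc11a1 (NRAMP1), a divalent metal carrier of phagosomes, stood at 27.2 CPM in young fibroblast-like cells and 9.98 CPM in old ones (56 and 30 UMIs, log2 -1.45, -2.14 to -0.78). Slc30a5, a zinc transporter of the secretory pathway, stood at 31.1 and 12.3 CPM (-1.34, -1.96 to -0.73). Slc41a3 stood at 40.3 and 18.0 CPM (-1.17, -1.69 to -0.66). Slc39a1 stood at 213 and 110 CPM (-0.96, -1.17 to -0.75). Slc39a7, a zinc transporter of the endoplasmic reticulum, stood at 137 and 75.9 CPM (-0.85, -1.11 to -0.59), but 82.7% of its 3′ end sequence also occurs in Gm20427. Slc39a14 went the other way, from 10.7 to 21.0 CPM (0.97, 0.25 to 1.74).

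The fibroblast-like class held 2 clusters in unequal parts. The cluster led by Gdf10 had 101 young and 55 old cells, and the cluster led by Dact2 had 138 and 517. Within the Dact2 cluster the log2 ratios were -1.02 (-1.84 to -0.20) for Slc11a1, -1.19 (-1.90 to -0.49) for Slc30a5, -0.90 (-1.50 to -0.29) for Slc41a3 and -0.77 (-1.02 to -0.52) for Slc39a1. Slc11a1 and Slc41a3 were also higher in the young Gdf10 cluster (40.9 and 52.2 CPM) than in the young Dact2 cluster (20.03 and 34.1 CPM). Their difference with age was smaller within the Dact2 cluster than over the class, and kept its direction there. In the old Gdf10 cluster each of the 3 genes Slc11a1, Slc30a5 and Slc41a3 had 2 UMIs.

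At the upper end in fibroblast-like cells were both scaffolds. Slc9a3r1 (NHERF1) stood at 8.26 and 18.6 CPM (log2 1.17, 0.37 to 2.05) and Slc9a3r2 at 45.7 and 76.9 CPM (0.75, 0.40 to 1.11). Slc3a2 stood at 85.1 and 127 CPM (0.58, 0.31 to 0.84), and Slc25a23, a calcium-dependent ATP-magnesium/phosphate carrier of mitochondria, at 17.5 and 29 CPM (0.73, 0.15 to 1.33). The other genes past 2-fold upwards were Slc12a7, Slc4a1ap, Slc4a7, Slc52a2 and Slc9a9. Of these, Slc4a1ap alone had an interval above 0 (1.24, 0.24 to 2.36). Taurine transporter levels in fibroblast-like cells were 60.8 CPM (young) and 75.9 CPM (old) (0.32, -0.00057 to 0.65). In the Dact2 cluster they were 71.9 and 71.2 CPM (-0.01, -0.37 to 0.35). The difference between the classes was not tested.

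Macrophage-like cells were compared with EC-like cells in the old library. Of 144 genes compared, 17 were at least 2-fold higher in macrophage-like than in EC-like cells, or 11.8%, beside 9.15% of all genes. Another 43 were at least 2-fold higher in EC-like cells, or 29.9%, beside 30.6% of all genes. Slc11a1 stood at 73.1 CPM against 0.426 CPM in old EC-like cells (log2 7.42, 6.21 to 8.93). Slc9a9, an endosomal sodium-proton exchanger, stood at 41.8 against 2.48 CPM (4.07, 3.33 to 4.81). Slc15a3, a lysosomal carrier of histidine and peptides, stood at 64.0 against 4.97 CPM (3.69, 3.13 to 4.23). Slc43a2, a carrier of large neutral amino acids, stood at 69.2 against 6.10 CPM (3.50, 2.98 to 4.01), and Slc7a7 at 35.3 against 6.74 CPM (2.39, 1.71 to 3.02). In the 13 young macrophage-like cells Slc11a1 had 8 UMIs, Slc43a2 had 4 and Slc15a3 had 2. Scaling to the median gene raised these log2 ratios by 0.184.

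Old EC-like cells carried more macrophage marker RNA than young ones (126 against 16.3 CPM). Of the 17 genes at least 2-fold higher in macrophage-like cells, Slc11a1, Slc15a3 and Slc43a2 were low in both. Slc7a7, another of the 17, was lower in old EC-like cells, as given above. Slc6a6, also at least 2-fold higher in macrophage-like cells, is described by age above. Slc11a1 had 1 UMI in young EC-like cells and 6 UMIs in old ones. Slc15a3 stood at 3.08 and 4.97 CPM in EC-like cells and Slc43a2 at 3.88 and 6.10 CPM (log2 of old over young 0.65, 0.09 to 1.24). The part of macrophage RNA in these EC-like levels was not tested. Fibroblast-like cells, at 27.2 and 9.98 CPM, held far more Slc11a1 than EC-like cells. In them macrophage markers summed to 21.4 CPM (young) and 162 CPM (old), and their part in the Slc11a1 difference was not tested.

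The 37 old erythroid-like cells held 165177 UMIs in all, and 85 of the 145 genes had no UMI there. With erythroid markers at 773830 CPM, the CPM of every other gene in this class was lowered. EC markers summed to 2355 CPM in these cells, with all 11 detected, against 11321 CPM in old EC-like cells. Where that RNA came from was not tested. By the nearest interval bound, and with the class total as the scale, 2 genes were higher than in old EC-like cells. Slc25a37 (mitoferrin-1), which brings iron into mitochondria for haem synthesis, stood at 78.7 CPM (41.9 to 135) on 13 UMIs, against 12.6 CPM in EC-like cells (log2 2.65, 1.71 to 3.46). It shares 24.5% of its 3′ end sequence with Gm16867. Slc25a39 stood at 66.6 CPM (33.2 to 119) on 11 UMIs, against 31.7 CPM (1.07, 0.06 to 1.92). Leaving haemoglobin, ribosomal protein and mitochondrial genes out of the total raised these log2 ratios by 2.127. The same shift applies to every other Slc gene of this class.

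Beside the 145 genes stands a list of 37 other transport genes (Slco carriers, ABC transporters, ion pumps, partner proteins and metal handling genes). Of the 31 with 20 UMIs or more in EC-like cells, 2 were at least 2-fold higher in old and 0 lower, beside 2.55% and 2.22% of all genes, with a median log2 ratio of 0.11. Emb (embigin), a partner glycoprotein of monocarboxylate transporters, stood at 23.5 CPM (young) and 66.9 CPM (old) (1.51, 1.30 to 1.72). Within the Coch subtype Emb went from 6.70 to 16.98 CPM (1.34, 0.68 to 2.02). Within the Isl1 subtype it went from 40.5 to 79.8 CPM (0.98, 0.75 to 1.20), just inside 2-fold. The old library held a larger share of Isl1 cells, in which Emb was higher at both ages. The part of that share in the EC-like ratio of Emb was not tested. Aqp1, a water channel also abundant in red cells, stood at 9.95 and 25.1 CPM (1.34, 1.01 to 1.67). The part of red cell RNA in this ratio was not tested. Bsg (basigin), the usual partner of Slc16a1, stood at 995 and 775 CPM in EC-like cells, where Slc16a1 had 3 and 1 UMIs. At least 2-fold higher in EC-like than in fibroblast-like cells of both libraries were 9 of the 31, among them the prostaglandin carrier Slco2a1 at 340 and 514 CPM, and 5 were higher in fibroblast-like cells, beside 14.4% and 8.48% of all genes. In fibroblast-like cells 2 of 28 were at least 2-fold higher and 2 lower in old, beside 3.19% and 4.30%. The 2 higher were again Aqp1 (0 and 18.6 CPM) and Emb (3.40 and 9.32 CPM, log2 1.45, 0.22 to 2.89). The 2 lower were Slco2b1 and Kcnj8.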

How the data were processed

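Gene by barcode tables for 1 young and 1 old library of mouse aorta hold UMI counts that the authors deposited as whole numbers, not normalized. Per the submitters' processing notes they used Cell Ranger and GRCm38. Neither the version nor the annotation is given in the sources used here. The 145 genes, the gene lists and the markers were chosen with earlier results of these data known.

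Filters asked for 200 genes or more and no more than 10% mitochondrial UMIs, and Scrublet calls were removed (6 per library, 0.440% and 0.180%, too few to have worked as a doublet filter), leaving 1359 young and 3330 old cells. With all Slc genes left out, cells were clustered together in scanpy 1.11.5 (2000 variable genes, 30 components, 15 neighbours, Leiden resolution 0.5). A cluster took the class whose markers were seen in most of its cells (at least 3 markers in 25% of cells). The cluster led by smooth muscle genes (15 young and 60 old cells) stayed unnamed, and B cell markers were present among T or NK-like cells. The rule for subtypes was settled after the clusters had been seen: each EC-like cluster took the subtype with the larger marker fold, after a stricter minimum on that fold had given no Isl1 subtype. The Isl1 marker folds of clusters 0, 6 and 8 were 1.10, 1.32 and 1.23, and in cluster 0 Bcan was seen in 14.8% and Coch in 15.8% of cells. Adra2a was seen in 34.5% of cluster 0 and 45.9% of cluster 6. With each cell classed by its own markers, 564 of 1104 young EC-like cells were Coch and 349 Isl1. In old, 686 of 2447 were Coch and 1266 Isl1, and the remaining cells of both libraries were in neither subtype.

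Raw counts were summed per class and library and divided by the class total (CPM). Levels carry exact Poisson and ratios exact conditional binomial 95% intervals, and shares of cells exact Clopper-Pearson ones. A ratio was computed with 20 UMIs or more over both groups, a count of 0 was set at 3, and 2-fold was the line for every count of genes. All genes with 100 UMIs or more served as background, except for the promoter windows, where all genes with a window did. The ratio code was tested on simulated data.

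The genes named are the ends of each comparison ranked by whichever interval bound lies nearer 1 (in EC-like cells 10 each way between ages, among genes with 50 UMIs or more), the 6 most abundant in EC-like cells, the ends of each substrate group, and those at the threshold, 51 genes in all, of which 1 is not reported here. Others named for passing 2-fold, and Slc25a5, were chosen after their values were seen. Coordinates follow GENCODE vM21 on GRCm38. Sharing of sequence is the share of 50-mers in the last 500 bases of a gene that occur in other genes' transcripts, and 13 of the 145 genes exceeded 10%. Scripts ran under Python 3.11.15 with igraph 0.11.9, pandas 2.3.3, scipy 1.17.1 and numpy 2.4.6.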

Additional observations from a re-analysis of the deposited data

Results flagged for a closer look

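In 3 genes the log2 ratio of old over young went one way in EC-like cells and the other way in fibroblast-like cells, with both counting intervals away from 0 when class totals set the scale. The phosphate carrier Slc25a3 was at -0.065 in EC-like and 0.26 in fibroblast-like cells. The magnesium transporter Slc41a1 was at -0.39 and 0.68. Slc43a3 was at 0.44 and -0.30. With mitochondrial, ribosomal protein and haemoglobin genes left out of the total, Slc25a3 was at -0.033 (-0.091 to 0.025) in EC-like cells and Slc43a3 at -0.15 (-0.30 to 0.0098) in fibroblast-like cells. With scaling to the median gene the latter was at -0.14 (-0.30 to 0.015), so these intervals reached over 0. With 1 library per age the difference between the classes was not tested.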

How the results depend on the processing

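No paired analysis was possible because each age has 1 library, and for the same reason no library could be left out. The 95 named ratios were recomputed under 9 settings, 7 planned and 2 added after seeing the data. The 2 were EC-like cells without marker UMIs of macrophages or fibroblasts, and each cell thinned to 1 depth. A change of sign was counted only for ratios whose main interval lay away from 0, and 1 ratio changed in that way. It was Slc4a8 between the subtypes of young, at -0.53 with doublet calls kept. Changes of sign in ratios whose main interval reached over 0 were not counted. In 10 of the 95 some settings gave no value, among them the erythroid-like ratios under the stricter filter, which left 0 such cells. Counts of genes past 2-fold that moved by over 1.5 times follow. Higher in old EC-like cells were 4 genes with doublet calls kept, with the marker-free cells and with thinning, against 2. In fibroblast-like cells 1 gene in place of 6 was higher in old at a minimum of 50 UMIs, and 4 in place of 11 were lower under both other scalings. Higher in the Coch subtype was 1 in place of 0 with the marker-free cells. Higher in the Isl1 subtype, in place of 4, were 2 at a minimum of 50 UMIs, 1 with classes given per cell, 1 with a stricter filter (500 genes, 5% mitochondrial UMIs), 0 with doublet calls kept and 1 with thinning. Within Coch cells, higher in old in place of 2 were 0 at a minimum of 50 UMIs, 6 with doublet calls kept and 5 with the marker-free cells. Lower in old in place of 2 were 4 with scaling to the median gene, 1 at a minimum of 50 UMIs, 1 with classes per cell, 18 with doublet calls kept, 7 with the marker-free cells and 5 with thinning. Within Isl1 cells 7 in place of 4 were higher with thinning and 5 in place of 3 lower with classes per cell. Monocarboxylate family members above 0, in place of 2, were 1 with median scaling, 0 with classes per cell and 1 with doublet calls kept, and nucleoside carriers 1 in place of 2 with the marker-free cells. With doublet calls kept, most young Coch cells fell in a cluster without an EC name, leaving 650 young EC-like cells. The cause of the other moves was not tested. With few UMIs in Coch, macrophage-like and erythroid-like cells, small counts limit what can be seen.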
